A study of Loxodonta africana with 12 samples.

Results

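The cytosolic ribosomal proteins are the protein parts of the ribosome that translates nuclear mRNAs. They were taken as every gene whose deposited symbol begins with RPL or RPS followed by a digit or, for RPL, by P, or is RPSA, leaving out the RPS6 kinases, RPS27L and RPS19BP1. This gave 57 genes of 16406, of which 39 belong to the large and 18 to the small subunit. No gene matched RPSA. The other symbols looked for without a match were RPL5, RPL26, RPS6, RPL39L, RPS4Y and RPLP0, and these genes were not analysed here under those names.

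RNA was sequenced from blood of the African elephant (Loxodonta africana), with 3 libraries in each of 4 groups. The groups were untreated at 5 h, irradiated with 2 Gy at 5 h, untreated at 24 h and irradiated with 2 Gy at 24 h. No group carried any other labelled agent. The labels number the replicates without naming their source (1 animal or several, 1 culture or several). The p-values therefore reflect how much these libraries varied, and that variation may be technical.

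A ribosome holds a single copy of most of these proteins, and cells as a rule make them in step. Many of their mRNAs begin with a run of pyrimidines (the TOP motif), through which the mTORC1 kinase and the protein LARP1 tie translation to nutrients and stress. Several free ribosomal proteins, RPL5, RPL11 and RPL23 among them, bind MDM2, the ubiquitin ligase that keeps p53 low. RPS19 is a small subunit protein needed to mature the 3′ end of the 18S rRNA and is the gene most often mutated in Diamond-Blackfan anaemia, an inherited failure to make red cells.

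Library totals were 31059389 to 38138163 counts at 5 h and 18022475 to 37356501 counts at 24 h. The p53 targets MDM2, CDKN1A and RPS27L, which check the irradiation labels, rose at both times, MDM2 by 2.64 ± 0.11 at 5 h and 2.68 ± 0.10 at 24 h on the log2 scale (edgeR, adjusted p = 2.4e-05 and 0.00017). The 3 general leukocyte genes PTPRC, CORO1A and LCP1 together held 6140 to 13310 CPM (counts per 1e6 counts, with the library sizes scaled by TMM), against 11.8 to 63.8 CPM for 5 measured red cell markers. In bulk RNA, fewer cells of a type and less RNA per cell cannot be told apart.

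RPS19 rose with irradiation at both times (ENSLAFG00000000640, scaffold 283, positions 114075 to 120863, plus strand, assembly L_africana_Jul_2009, 450 bases of exon with introns in the model). Its level was 545, 562 and 631 CPM in the 3 untreated libraries at 5 h and 781, 868 and 871 CPM in the 3 irradiated ones. At 24 h it was 613, 700 and 652 CPM in the untreated libraries and 1125, 1219 and 1352 CPM in the irradiated ones. At each time every irradiated library lay above every untreated one. RPS19 rose by a log2 fold change of 0.52 ± 0.08 (SE, 3 libraries a group) at 5 h and 0.90 ± 0.10 at 24 h, with adjusted p = 0.025 and 0.0045 in edgeR's quasi-likelihood test.

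The call at 24 h held without any 1 of the 6 libraries, with adjusted p from 0.00494 to 0.0369. The call at 5 h held only without untreated replicate 3 (adjusted p = 0.0261) and was lost without any 1 of the other 5, with adjusted p up to 0.12, while the log2 fold change stayed between 0.48 and 0.59. With the replicate number as a block, taken to pair the libraries at 5 h on the check given with the processing, the adjusted p at 5 h was 8.5e-08. The irradiation effect was larger at 24 h than at 5 h by 0.38 ± 0.14, which did not pass the interaction test over 12 libraries (adjusted p = 0.36).

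The members as a group, with RPS19 counted among them, did not follow its rise. All 57 held 2.60% ± 0.19 (SD, n = 3) of the counts in untreated and 2.58% ± 0.16 in irradiated libraries at 5 h, and the ranges of 2.42% to 2.80% and 2.42% to 2.72% overlapped. At 24 h they held 2.91% ± 0.063 of the counts in untreated and 2.24% ± 0.056 in irradiated libraries, with the lowest untreated library at 2.86% and the highest irradiated one at 2.27%. RPS19 alone took 1.94% ± 0.013 of the ribosomal protein counts in untreated and 2.78% ± 0.072 in irradiated libraries at 5 h. At 24 h its part was 2.69% ± 0.059 and 6.19% ± 0.43. At each time the untreated and irradiated ranges of this part did not overlap.

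**Figure D1:**
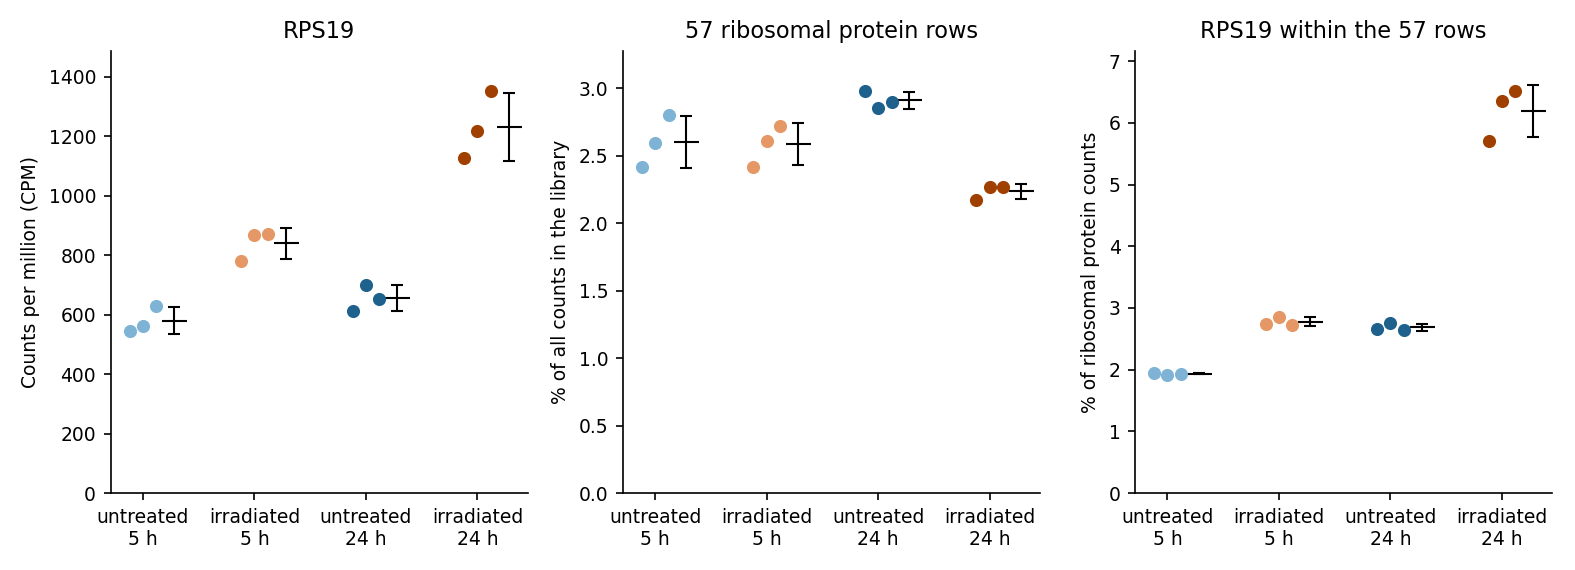
RPS19 level (left, TMM-scaled CPM), the part of each library's counts held by the 57 ribosomal protein genes (middle, percent) and the part of those counts held by RPS19 (right, percent), with 1 point per library and the mean ± SD of 3 libraries as a bar. RPS19 is higher in every irradiated than in every untreated library of the same time, while the 57 genes together are lower after irradiation at 24 h, at 2.17% to 2.27% against 2.86% to 2.98%.

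Set against the mean log2 CPM of the other 56 members in the same library, RPS19 stood 1.21 ± 0.025 (SD) above it in untreated and 1.73 ± 0.041 in irradiated libraries at 5 h, a difference of 0.53. At 24 h it stood 1.67 ± 0.059 and 2.91 ± 0.13 above it, a difference of 1.24. Taken only against the other small subunit members, these differences were 0.55 and 1.27. RPS19 stood less far above the median of the other members. At 5 h this was 0.39 in untreated and 0.88 in irradiated libraries, and at 24 h 0.92 and 2.14. All these values are a description, since RPS19 was picked out with its response known.

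Per kilobase of exon, the scale on which genes can be set side by side, RPS19 was at 1287 ± 101 CPM per kb in untreated libraries at 5 h, the 18th highest of the 57. It was the 4th highest in irradiated libraries at 5 h (1867 ± 114) and the 7th in untreated libraries at 24 h (1455 ± 97.0). In irradiated libraries at 24 h it was the highest, at 2737 ± 254 CPM per kb. RPS12, another small subunit protein, was the highest in the other 3 groups, at 2194, 2346 and 2041 CPM per kb. The median of the other 56 members was 945, 919, 760 and 579 CPM per kb in the same order of groups.

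Not every gene with a ribosomal protein symbol was read at such levels. The gene model holds no intron in 8 of the 57 genes (RPL10A, RPL10L, RPL36, RPL36A, RPL7, RPLP1, RPS26 and RPS29), and 5 of these 8 were under 100 CPM per kb over the 12 libraries, with a median of 57.6 for the 8. Of the 49 genes with introns, 2 were under 100, RPL22L1 and RPL3L, with a median of 874 for the 49. RPL10A, RPL10L and RPL3L stayed under 1 CPM on average. RPL3L is the form of RPL3 found mainly in heart and skeletal muscle, and RPL10L the form of RPL10 of the male germ line. Ribosomal protein genes have many intronless copies in mammalian genomes, so reads may be split between a gene and its copies, and the counts of the 8 intronless models in particular are uncertain. RPL3L and RPS2 lie 7216 bases apart on scaffold 53.

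**Figure D2:**
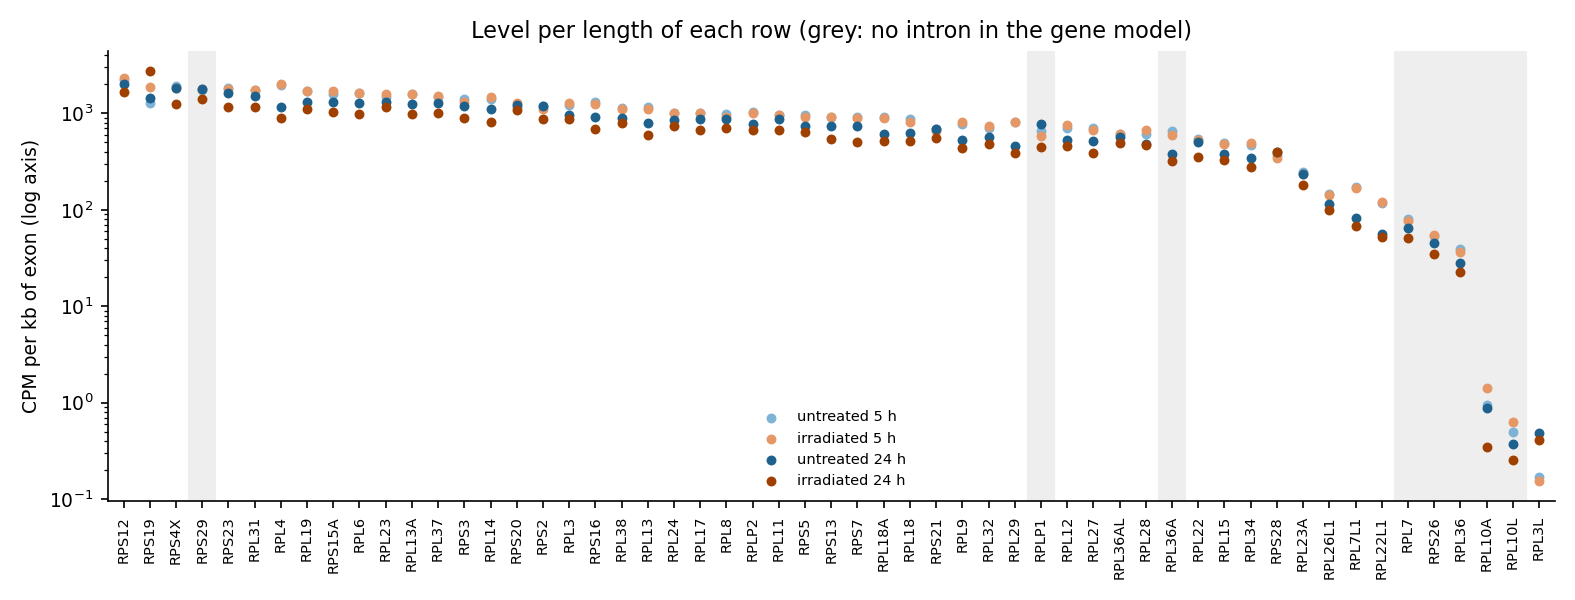
Mean level of 55 of the 57 genes in the 4 groups, in CPM per kilobase of exon on a log axis, ordered by the mean over all 12 libraries, with gene models that hold no intron shaded grey. RPS12 and RPS19 lead the order, and 5 of the 8 shaded genes lie in the tail under 100 CPM per kb.

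At 5 h, of 56 members tested (RPL3L did not pass the filter on low counts), 1 rose, RPS19, or 1.79%, and 0 fell. Of all 12969 genes tested 1.12% rose and 0.478% fell, so the members' share was near that of all genes. At an unadjusted p under 0.05 the counts were also 1 and 0. The median log2 fold change of the members was -0.02, and their middle 50% lay between -0.07 and 0.03. For all genes the median was -0.0015 and the middle 50% lay between -0.12 and 0.11. RPL11, which binds MDM2, was at 484, 546 and 548 CPM in untreated and 486, 526 and 542 CPM in irradiated libraries (log2 fold change -0.03 ± 0.08, adjusted p = 0.91). RPL23, which binds it too, was at 569, 600 and 703 against 666, 691 and 650 CPM (0.09 ± 0.09, adjusted p = 0.75). The groups overlapped for both.

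With the replicate block at 5 h, 3 members were called higher and 2 lower, where 10.6% and 9.92% of all genes were. Beside RPS19 these were RPL28 and RPS20 above, each by a log2 fold change of 0.14 (adjusted p = 0.023 and 0.019), and RPLP1 and RPL36A below (adjusted p = 0.018 and 0.045). The members' share of calls under the block was thus at or below the background. RPL10A had a larger log2 fold change than RPS19 (0.57 ± 0.32, adjusted p = 0.53), but from levels of 0.34 to 0.82 CPM.

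At 24 h the ribosomal proteins moved down and RPS19 up. Of 56 members tested (here RPL10L did not pass the filter), 16 fell, or 28.6%, where 4.94% of all 14373 genes fell. One member rose, RPS19, where 1.8% of all genes rose. The log2 fold change was below 0 for 55 of 56, and 42 were lower at an unadjusted p under 0.05, which 14.2% of all genes were. The median was -0.32 with a middle 50% of -0.41 to -0.23, against 0.01 and -0.20 to 0.28 for all genes. The falls took in both subunits, with 9 of 38 large subunit members (23.7%, median -0.30) and 7 of 18 small subunit members (38.9%, median -0.38). RPS19 lay 1.23 above the members' median.

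RPLP1, an acidic protein of the stalk that recruits elongation factors, had the lowest value among the genes called. It was at 216, 194 and 229 CPM in untreated and 119, 111 and 143 CPM in irradiated libraries (log2 fold change -0.79 ± 0.12, adjusted p = 0.013). Its groups were well apart, but its model holds no intron. Its stalk partner RPLP2 was at 148, 183 and 209 against 129, 147 and 193 CPM, with overlapping groups (-0.21 ± 0.17, adjusted p = 0.54).

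RPL22, an RNA-binding protein of the large subunit that T cell development depends on, was at 189, 195 and 205 CPM in untreated and 136, 132 and 140 CPM in irradiated libraries at 24 h. The groups did not overlap, and the log2 fold change was -0.54 ± 0.08 (adjusted p = 0.012). RPL22L1, its paralog, was at 18.8, 22.0 and 19.1 against 21.3, 16.6 and 18.1 CPM, with overlapping groups (-0.11 ± 0.12, adjusted p = 0.67). Whether the 2 paralogs differed from each other was not tested.

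RPS4X, the X-linked form of the small subunit protein S4, was at 1392, 1546 and 1417 CPM in untreated and 987, 963 and 993 CPM in irradiated libraries (-0.57 ± 0.09, adjusted p = 0.014). RPS7, which can also bind MDM2, was at 427, 436 and 428 against 319, 275 and 290 CPM (-0.56 ± 0.09, adjusted p = 0.018). RPL11 was at 474, 479 and 486 against 377, 357 and 356 CPM (-0.41 ± 0.09, adjusted p = 0.036). In all 3 genes every irradiated library was below every untreated one.

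RPL23 did not pass the test at 24 h (-0.18 ± 0.09, adjusted p = 0.31), and its libraries were at 509, 593 and 556 against 506, 472 and 493 CPM. RPS3, a small subunit protein at the mRNA entry that also has a part in DNA repair, was at 785, 928 and 907 against 654, 635 and 701 CPM (-0.41 ± 0.10, adjusted p = 0.054). Its groups did not overlap but it missed the threshold. Others called were RPS23, RPL14, RPS13, RPS16, RPL27, RPL23A, RPL6, RPL17, RPL31 and RPS15A, with log2 fold changes from -0.50 to -0.36. RPS28 and RPL28 were the members nearest to 0 (-0.02 ± 0.22 and -0.06 ± 0.10).

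**Figure D3:**
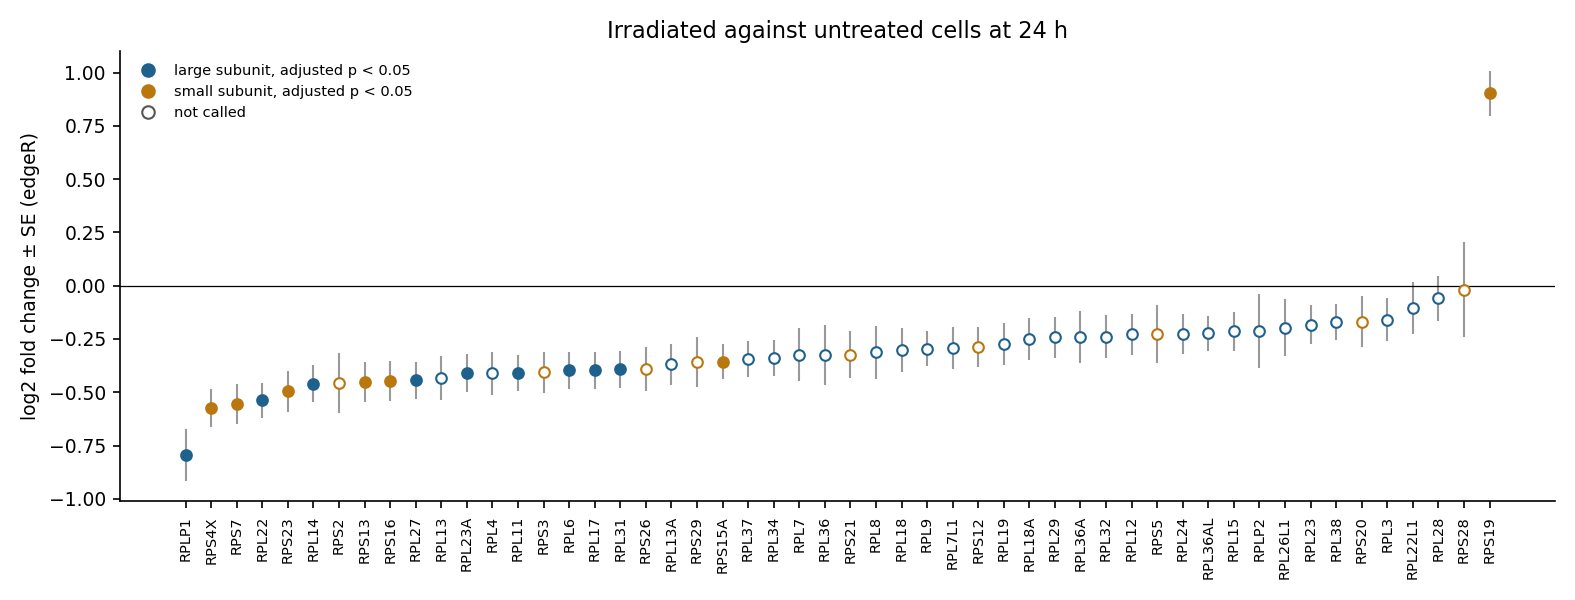
Log2 fold change ± SE of the singly reported ribosomal protein genes above 1 CPM, irradiated against untreated libraries at 24 h (edgeR, 3 libraries a group), ordered by size, with large subunit genes in blue, small subunit genes in orange and filled points for adjusted p below 0.05. All but RPS19 lie below 0, from -0.79 for RPLP1 to -0.02 for RPS28, and RPS19 stands apart at 0.90.

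Single calls among the 16 depended on the libraries used. Each was lost without at least 3 of the 6 libraries taken 1 at a time. The number of members called lower was 0 without untreated replicate 1, untreated replicate 3 or irradiated replicate 2, 3 without untreated replicate 2 or irradiated replicate 3, and 11 without irradiated replicate 1. In the same order, 247, 275, 221, 364, 358 and 753 of all genes were called lower, against 710 with all 6 libraries. The median stayed between -0.38 and -0.30.

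Genes of single blood cell types moved with the groups at 24 h, where 4.94% of all genes fell and 1.8% rose. The 7 measured of 8 B cell markers all fell (median -3.31), and their summed level was 384 to 468 CPM in untreated and 55.8 to 75.2 CPM in irradiated libraries. The 7 measured of 8 T cell markers summed to 349 to 400 against 232 to 244 CPM, and 4 fell. The 5 measured of 7 markers of NK and cytotoxic cells summed to 382 to 437 against 142 to 211 CPM, and 4 fell. The 4 measured of 6 monocyte markers summed to 2965 to 3256 against 5054 to 5621 CPM, and 3 rose. Neutrophil markers summed to 27.7 to 43.0 against 42.3 to 119 CPM (6 measured of 6, 1 rose) and platelet markers to 46.8 to 62.1 against 99.8 to 129 CPM (4 measured of 6, 3 rose). At 5 h the B cell markers summed to 281 to 341 CPM in untreated and 176 to 231 CPM in irradiated libraries. Of the 7 markers 1 fell, where 0.478% of all genes did. With the replicate block at 5 h, where 9.92% of all genes were lower and 10.6% higher, 7 of 7 B cell, 5 of 7 T cell and 5 of 5 NK and cytotoxic cell markers were lower, and of 4 monocyte markers 3 were higher and 1 lower. None of these markers was at 0 in all 12 libraries. Their part in the fall of the ribosomal proteins or in the rise of RPS19 was not tested.

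The gene next to RPS19 is itself a B cell gene. CD79A, a chain of the B cell receptor, begins 4705 bases past the end of RPS19 on the same strand. It was at 20.6, 18.6 and 23.1 CPM in untreated and 3.40, 5.55 and 6.90 CPM in irradiated libraries at 24 h (log2 fold change -1.99 ± 0.24, adjusted p = 0.0055), so the neighbours changed in opposite directions. At 5 h CD79A was at 21.0 ± 3.3 and 15.5 ± 1.1 CPM (-0.45 ± 0.13, adjusted p = 0.19, and 0.0007 with the replicate block). ARHGEF1, 16293 bases away, was not called at either time (-0.04 ± 0.09 and -0.27 ± 0.20). DMRTC2 and LYPD4, on the other side, were under 1 CPM.

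The irradiation effect differed between the times for 0 members in either direction, where 0.125% of all 15200 genes were called higher at 24 h and 0.757% lower. At an unadjusted p under 0.05, 1 member was higher and 27 were lower of 57. The share of all genes at that threshold was not counted here, so these counts have no background beside them. DESeq2 called 6 members lower, and 282 of all 15200 genes. The median difference of the members was -0.32 against -0.01 for all genes. RPL22 and RPS15A came to -0.51 ± 0.12 and -0.46 ± 0.12 (adjusted p = 0.089 and 0.11).

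The comparisons of 24 h with 5 h share libraries with those above. In untreated libraries 28 of 56 members (50%) were lower at 24 h than at 5 h, where 30.5% of all genes were lower, and 1 was higher, where 32.6% were. The members' median was -0.29 against 0.11 for all genes, but with library totals alone as the scaling it was 0.13. With those totals the median of all genes moved up by 0.42, and 16 members were called higher and 5 lower. Of all 13445 genes, 7063 were then called higher and 2234 lower. Relative to the median of all genes the members stood at -0.39 under either scaling.

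The steepest falls in untreated libraries were in the paralogs RPL7L1 and RPL22L1 and in a few other large subunit genes. RPL7L1, an RPL7 relative that works in ribosome assembly, was at 125, 124 and 138 CPM at 5 h and 57.6, 65.2 and 61.7 CPM at 24 h (-1.03 ± 0.08, adjusted p = 1.8e-05). RPL22L1 was at 41.6, 38.7 and 46.0 against 18.8, 22.0 and 19.1 CPM (-1.03 ± 0.10, adjusted p = 5.1e-05). RPL29 (-0.77 ± 0.10), RPL36A (-0.75 ± 0.10) and RPL4 (-0.70 ± 0.10) followed, of which RPL36A has no intron in its model. The paralog RPL26L1 fell less (-0.31 ± 0.09, adjusted p = 0.018).

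RPL4, a core large subunit protein with the most counts of the members over the 12 libraries, was at 2399, 2550 and 2548 CPM at 5 h and 1469, 1595 and 1434 CPM at 24 h. RPL22 was at 189, 203 and 232 against 189, 195 and 205 CPM, with overlapping groups (-0.04 ± 0.10, adjusted p = 0.71). RPL36AL was likewise at 175 to 209 and 178 to 190 CPM (-0.04 ± 0.10, adjusted p = 0.70). Differences between paralogs were not tested. By subunit, 23 of 38 large (60.5%) and 5 of 18 small subunit members (27.8%) fell, with medians of -0.31 and -0.14, where 30.5% of all genes fell. The share of the small subunit members was thus near that of all genes, and the difference between the subunits was not tested. RPS19 was above its 5 h level by 0.22 ± 0.10 (adjusted p = 0.085). The single member called higher, RPL3L (1.56 ± 0.42, adjusted p = 0.011), went from 0.16 to 0.26 CPM up to 0.46 to 0.71 CPM.

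In irradiated libraries 48 of 56 members (85.7%) were lower at 24 h than at 5 h, where 30.6% of all genes were, and 2 were higher, where 35.3% were. The median was -0.53 against 0.10, or -0.64 relative to all genes. With library totals alone 20 members were lower with a median of -0.19, where 2630 of 14028 genes were lower. The 2 higher ones were RPS19 (0.61 ± 0.11, adjusted p = 0.0018) and RPL3L (1.42 ± 0.40). RPL7L1 fell by 1.26 ± 0.10, RPL22L1 by 1.15 ± 0.12, RPL4 by 1.12 ± 0.11 and RPL29 by 0.995 ± 0.09 on the log2 scale, each with an adjusted p of 7.6e-05 or less. RPL10A, whose libraries were all under 1 CPM, had the lowest value (-1.94 ± 0.32, adjusted p = 0.00095). Of the subunits, 36 of 38 large (94.7%) and 12 of 18 small members (66.7%) fell.

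**Figure D4:**
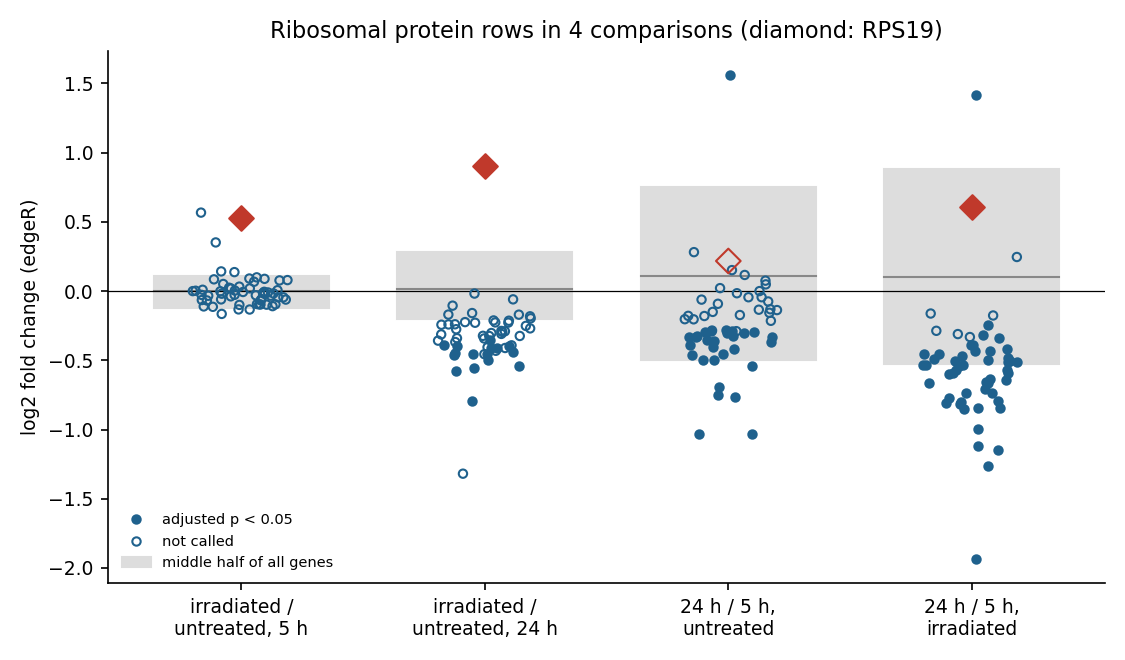
Log2 fold changes of the ribosomal protein genes in the 4 comparisons (edgeR with TMM scaling), filled where adjusted p is below 0.05, with RPS19 as a red diamond and the middle 50% and median of all genes tested as a grey box and line. RPS19 is at 0.52, 0.90, 0.22 and 0.61, above the members' medians of -0.02, -0.32, -0.29 and -0.53, and the points above 1.4 in the time comparisons are RPL3L at under 1 CPM.

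Some ribosomal proteins carry no symbol in the tables. A search of the gene descriptions, made after the files were seen, found 9 such genes, of which 8 were tested and 3 fell at 24 h, where 4.94% of all genes did. The gene described as 40S ribosomal protein SA was at 867, 940 and 925 CPM in untreated and 578, 541 and 620 CPM in irradiated libraries at 24 h and fell by 0.66 ± 0.09 on the log2 scale (adjusted p = 0.009). Of 2 genes described as S3a, 1 fell by 0.70 ± 0.12 (adjusted p = 0.019) and the other was at -0.39 ± 0.12 (adjusted p = 0.10). Of 2 described as S6, the phosphorylated end point of the mTORC1 pathway, the one with more counts was at -0.21 ± 0.09 (adjusted p = 0.23) and the other fell by 0.43 ± 0.10 (adjusted p = 0.044). The other 3 were not called, 2 described as S24 (both -0.28, adjusted p = 0.14 and 0.29) and 1 as L19 (-0.45 ± 0.12, adjusted p = 0.083). The rule also misses FAU and GNB2L1 (RACK1), of which GNB2L1 fell at 24 h and neither was called at 5 h. None of the 8 passed the test at 5 h, with or without the replicate block, where the values lay between -0.09 and 0.02.

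The genes that build ribosomes are counted here beside 4.94% of all genes lower with irradiation at 24 h and 30.5% lower with time in untreated libraries. Of 28 measured small subunit assembly factors 0 were called at 5 h and 5 fell with irradiation at 24 h (median -0.23), whereas 27 were lower at 24 h than at 5 h in untreated libraries (median -1.23). BYSL fell from 67.6 to 9.89 CPM (-2.73 ± 0.09, adjusted p = 8.5e-07) and HEATR1 from 255 to 58.5 CPM (-2.08 ± 0.09, adjusted p = 1.2e-06). Of 38 large subunit assembly factors 0 were called at 5 h, 6 fell with irradiation at 24 h (median -0.20) and 35 fell with time in untreated libraries (median -1.11), GNL3 (nucleostemin) from 348 to 57.9 CPM (-2.55 ± 0.13). With the replicate block at 5 h, 3 small and 2 large subunit factors were called higher, where 10.6% of all genes were. With library totals alone the time counts were 22 and 26, with 0 and 1 higher, and the counts lower with irradiation at 24 h were 8 and 13. DESeq2 gave 7 and 10 at 24 h. Of all 14373 genes tested at 24 h, library totals called 1045 lower with irradiation and DESeq2 1109. Library totals called 2234 of 13445 genes lower and 7063 higher with time in untreated libraries.

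Of 9 genes listed for nucleolar RNA-protein particles, 4 were lower after irradiation at 24 h (median -0.40), where 4.94% of all genes were. With time in untreated libraries 8 were lower (median -1.001), where 30.5% of all genes were. Among them the dyskerin gene DKC1 fell by 0.40 ± 0.09 with irradiation at 24 h (adjusted p = 0.042) and by 1.77 ± 0.09 with time (adjusted p = 2.3e-06). For RNA polymerase I and its factors, which transcribe rRNA, the counts were 1 of 14 (POLR1B, -0.77 ± 0.09, adjusted p = 0.0055) and 12 of 14. With library totals they were 2 lower with irradiation at 24 h, where 1045 of 14373 genes were. With time they were 4 lower and 1 higher under that scaling, where 2234 and 7063 of 13445 genes were. At 5 h neither list had a call, and with the replicate block each had 1 gene higher, where 10.6% of all genes were. RRN3, the factor that brings the polymerase to rDNA, fell by 1.98 ± 0.09 with time (adjusted p = 1.2e-06).

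Other mRNAs with a TOP motif, for elongation factors and the like, fell for 3 of 12 after irradiation at 24 h (median -0.27) and for 10 of 12 with time in untreated libraries (median -0.54), with 1 higher, TPT1, at 1.28 and 2.45 CPM. The shares of all genes lower were 4.94% and 30.5%, and 32.6% were higher with time. With library totals 5 were lower with irradiation at 24 h, where 1045 of 14373 genes were. With time 4 were lower and 1 higher under that scaling, where 2234 and 7063 of 13445 genes were. DESeq2 gave 5 lower and 1 higher at 24 h, where it called 1109 and 606 of 14373 genes. EEF1G fell by 0.46 ± 0.09 (adjusted p = 0.025), NACA by 0.41 ± 0.08 (adjusted p = 0.033) and BTF3 by 0.40 ± 0.09 (adjusted p = 0.043) with irradiation at 24 h. At 5 h 0 of the 12 were called, and 1 was higher with the replicate block, where 10.6% of all genes were.

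In the mTORC1 list EIF4EBP2, a translation repressor that mTORC1 switches off, rose by 0.74 ± 0.12 at 5 h (adjusted p = 0.027) and 0.61 ± 0.13 at 24 h (adjusted p = 0.038), from 7.16 to 12.1 CPM and from 7.93 to 12.2 CPM. It was the 1 of 8 called with irradiation at either time, where 1.12% of all genes rose at 5 h and 1.8% at 24 h. LARP1 was at 0.08 ± 0.13 at 5 h and -0.34 ± 0.13 at 24 h. Among 8 chaperones and partners of single ribosomal proteins, BCCIP fell with irradiation at 24 h (-0.67 ± 0.09, adjusted p = 0.0086), where 4.94% of all genes fell. With library totals 3 of the 8 were lower, and 1045 of 14373 genes. With DESeq2 2 of the 8 were lower, and 1109 of all genes. At 5 h edgeR called 0 of the 8 and DESeq2 1 higher, where DESeq2 called 240 of 12969 genes higher. The replicate block at 5 h gave 2 higher and 1 lower, where 10.6% and 9.92% of all genes were. The RPS19 binding protein gene RPS19BP1 was at 28.3 and 36.1 CPM at 5 h (0.34 ± 0.08, adjusted p = 0.12, and 0.00074 with the replicate block) and at 20.6 and 22.9 CPM at 24 h (0.14 ± 0.16, adjusted p = 0.67).

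**Figure D5:**
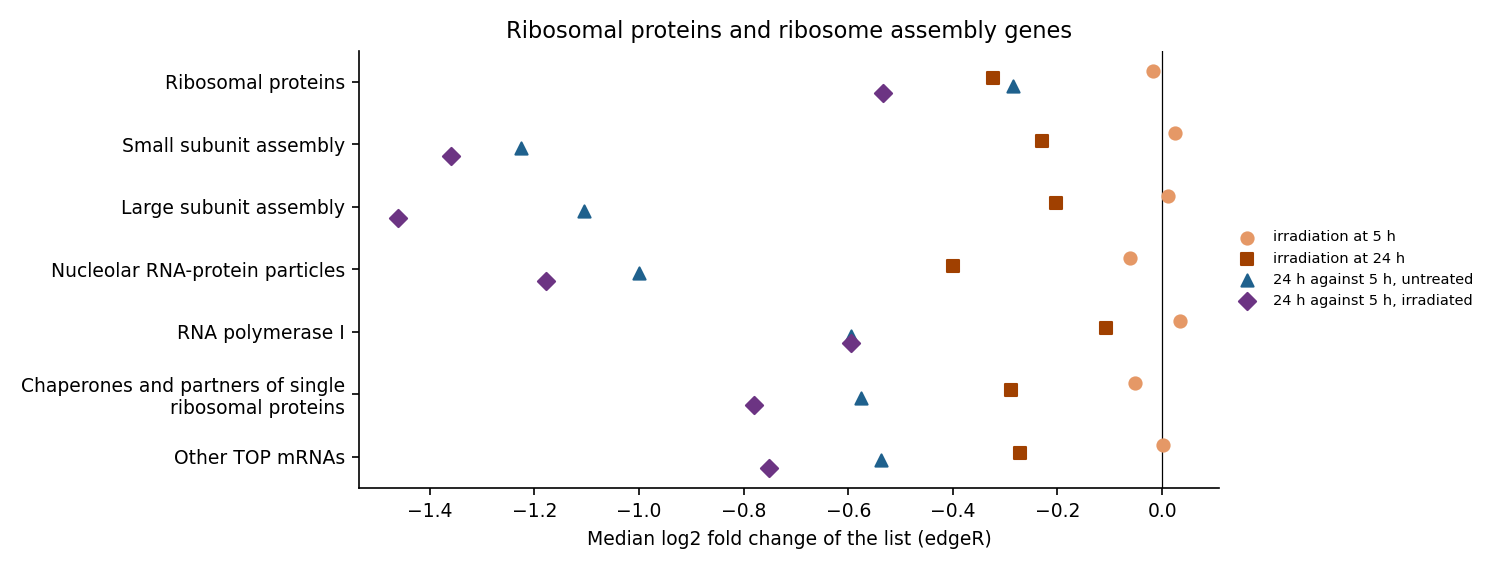
Median log2 fold change of the ribosomal proteins and of 6 lists of related genes in the 4 comparisons (edgeR with TMM scaling). At 5 h all medians lie near 0, and in the time comparisons the assembly factors lie lower (-1.23 and -1.11 in untreated libraries) than the ribosomal proteins (-0.29), an order not tested.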

How the data were processed

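The authors deposited 1 table per time point with raw read counts per gene and library, per the file headers, and these counts were the input of every test. The deposited exon length (Total BPs, in bases) gave levels per kilobase. The 24 columns of regularized log and FPKM values were not used here. Per the labels, libraries were made from total RNA with a stranded kit after rRNA depletion. No label or header names the aligner, the counter or its use of strand, so reads of overlapping genes and near-identical copies cannot be separated. Coordinates are on the assembly named L_africana_Jul_2009 in the headers. Deposited starts count from 0 (1449 single-exon models span their exon length only so) and are printed from 1.

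Counts were tested with edgeR 4.0.16 in R 4.3.3 (DESeq2 1.42.0 as an alternative): TMM scaling, filterByExpr, quasi-likelihood F test, Benjamini-Hochberg adjustment over all genes tested, called under 0.05. Fits used the 6 libraries of the 2 groups compared, and the interaction all 12. The SE is the log2 fold change over the root of F. Printed CPM values use TMM factors over 12 libraries, with 0.5 added for log2. The procedure was tested on simulated data. No pair of libraries held identical counts.

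The members and lists were chosen with earlier results of these data known. Named were RPS19, members with known extra roles and paralogs, up to 12 members called per comparison by p, the 4 highest and 4 lowest, genes within 50 kb of RPS19, and up to 3 genes per other list by p. RPS12, TPT1, the close pair RPL3L and RPS2, the unnamed genes and the members called only with the replicate block were added after their values were seen. Some genes enter the counts and medians but are not reported singly here.

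Replicate numbers come from the labels. At 5 h, deviations from the group means correlated between same-numbered libraries at 0.67, 0.68 and 0.82 over 9561 genes of at least 5 CPM, and the numbers were taken as pairs. That gene set was adopted after a first run over all 15200 genes, where the values are 0.14, 0.095 and 0.34 and the least lies under the 0.1 required, and with the effect of the block on the calls known. The pairing thus rests on that choice. At 24 h the values were -0.16, -0.60 and 0.85, and the numbers were not taken as pairs. Across numbers at 24 h, untreated 1 and irradiated 2 correlated at 0.535, and untreated 2 and irradiated 1 at 0.837. Over all 15200 genes these values were 0.415 and 0.424, beside 0.623 for the libraries numbered 3. The 24 h libraries may thus be paired in another order than their numbers. No fit used that order, and the replicate block at 24 h used the numbers. Alternatives were other scalings, DESeq2, other filters, the replicate block, 1 fit over 12 libraries and leaving out each library.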

Additional observations from a re-analysis of the deposited data

Results flagged for a closer look

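For 2 of the genes named in the text, the irradiation effect on the log2 scale differed between 24 h and 5 h by the interaction test over 12 libraries (edgeR, adjusted p under 0.05). The effect on CD79A, the B cell gene beside RPS19, was lower at 24 h by a difference of -1.55 (adjusted p = 0.022). All 7 measured B cell markers were called lower in that test, with a median of -2.63, where 0.757% of all genes were. The effect on CDKN1A, the p53 target that checks the labels, was higher at 24 h by 1.24 (adjusted p = 0.034). No ribosomal protein gene passed that test.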

How the results depend on the processing

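The rise of RPS19 with irradiation kept its direction and its call at both times under every scaling, filter and test tried, with the replicate block and in 1 fit over 12 libraries, and without any 1 library at 24 h but not at 5 h. With library totals alone, 30 members were lower after irradiation at 24 h, as were 1045 of 14373 genes. The same scaling gave 7063 genes higher and 2234 lower with time in untreated libraries, 16 members higher, 5 lower and a members' median of 0.13, and in irradiated libraries 2630 genes and 20 members lower with a median of -0.19. It turned the sign, with time in untreated libraries, of RPL27 (0.0089), RPS7 (0.13), RPL26L1 (0.11) and RPLP2 (0.060) and, in irradiated ones, of RPL36AL (0.094), because it moves all genes up. It also raised RPS19 with time in untreated libraries to 0.63, past the threshold, and gave 1 member lower in the interaction. DESeq2 called 240 genes higher and 204 lower at 5 h, 606 and 1109 with 27 members lower at 24 h, 1 member higher with time in irradiated libraries, and 80 and 282 genes with 6 members lower in the interaction. The replicate block gave 1369 genes higher and 1286 lower at 5 h with 3 members higher and 2 lower. At 24 h, where the same numbers do not pair the libraries, the block called 3 members and 482 of 14373 genes lower. It left 2 small and 3 large subunit assembly factors, 2 nucleolar particle genes and 0 other TOP mRNAs lower at 24 h. Neither EIF4EBP2 (adjusted p = 0.076) nor GNB2L1 (adjusted p = 0.13) was called with the block at 24 h. One fit over 12 libraries gave 508 genes higher and 1162 lower at 24 h. A minimum of 1 CPM in 3 libraries gave 2 members higher with time in untreated libraries, RPS19 (0.26) among them, 1 in irradiated ones, and 32 genes higher in the interaction. The cause was not tested except where stated.

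Against the median of the other members RPS19 differed by 0.49 at 5 h. Without the 3 members with the most counts the members' share differed by -0.54 percentage points at 24 h. Without 1 library at a time, genes called at 5 h were 72 to 122 higher and 14 to 69 lower, with 0 to 1 members higher. At 24 h they were 72 to 308 and 221 to 753, with 0 to 11 members lower. Members higher with time were 0 to 2 in untreated and 1 to 2 in irradiated libraries, where the members' median was -0.66 to -0.54. The interaction called 4 to 51 genes higher and 72 to 117 lower. Depth limits RPL10A, RPL10L and RPL3L, all under 1 CPM.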

Other observations

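In irradiated libraries the genes of ribosome assembly were also lower at 24 h than at 5 h, where 30.6% of all genes were. Of the small subunit assembly factors 28 of 28 fell (median log2 fold change -1.36), and of the large subunit factors 36 of 38 (median -1.46). Of the nucleolar particle genes 9 of 9 fell (median -1.18), and of RNA polymerase I and its factors 12 of 14 (median -0.59). Of the partners of single ribosomal proteins 6 of 8 fell (median -0.78), and of the other TOP mRNAs 11 of 12 (median -0.75). With library totals alone as the scaling the counts were 26, 31, 7, 7, 4 and 9, where 2630 of 14028 genes were lower. BYSL, a small subunit factor, fell by 3.09 ± 0.11 (adjusted p = 1.4e-06), GNL3 by 3.08 ± 0.14 (adjusted p = 2.1e-06) and MRTO4, a stalk assembly factor, by 2.88 ± 0.10 (adjusted p = 1.4e-06). NPM1, the nucleolar protein nucleophosmin, fell least of the genes in the nucleolar particle list, by 0.64 ± 0.15 (adjusted p = 0.0048).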
